A study of Malus domestica with 4 samples.

Results

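The transcriptome of apple cortex after 24 days in storage at 0.8 kPa oxygen (0.8ox) was set against that of the same tissue before the low oxygen atmosphere was applied (T0). Every gene model with at least 10 estimated counts in either condition was taken, which gave 29937 of the 63514 genes in the table. Both conditions came from detached Granny Smith fruit (Malus domestica), and slices of cortex cut at the equator of the fruit were sampled. T0 fruit had been harvested at commercial ripeness and held for a few days in the cold in air, which is the normoxic sample of the series. 0.8ox fruit had the same harvest and the same days in the cold, and then stayed in the cold under 0.8 kPa oxygen in nitrogen with a low partial pressure of carbon dioxide. Fruit kept in 0.4 kPa oxygen for the same time (0.4ox) had the same start, and its values are given only beside those of 0.8ox. A further sample was taken after fruit had been moved to 0.8 kPa from 0.4 kPa oxygen. RNA of cold stored fruit kept in air for 24 days was not analysed here, so the low oxygen and the time in the cold cannot be told apart.

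When oxygen becomes scarce, plant cells shift from mitochondrial respiration to fermentation. Pyruvate decarboxylase (PDC) turns pyruvate into acetaldehyde, alcohol dehydrogenase (ADH) reduces it to ethanol and lactate dehydrogenase (LDH) makes lactate, and the reductions return the NAD+ that glycolysis needs. In Arabidopsis, ethylene responsive factors (ERFs) of group VII are degraded in air and persist in hypoxia, where they switch on fermentation genes. In apple, a climacteric fruit, ripening is driven by ethylene, made from 1-aminocyclopropane-1-carboxylic acid (ACC) by ACC synthase and ACC oxidase, and it brings with it softening of the cell wall and the synthesis of volatile esters. The last step of ethylene synthesis itself needs oxygen.

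The estimated counts summed to 6471124 in 0.8ox and to 9553180 in T0, and those of 0.8ox were multiplied by 1.48 so that both totals were equal. Each condition was represented by 3 libraries, which the authors' counting program merged before deposit, so every gene had 1 value per condition with a modelled variance. The SD given beside a count is the root of that variance, and no value per library was used. The variance covers the spread between fruit only as modelled for genes of similar count. Cortex has no defining marker list among the names at hand. Phloem protein 2-B10 (MDP0000126417), a marker of vascular tissue, had 10.7 counts in 0.8ox and 18.0 in T0, a log2 ratio of -0.76 (SE 0.64) that missed the threshold.

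The comparison asks which genes changed between the start of low oxygen and the last sampling before any fruit was moved to another atmosphere. Of 29909 genes with counts above 0 in both conditions, 4975 (16.6%) were differentially expressed in 0.8ox, with 2001 higher (6.69%) and 2974 lower (9.94%). A gene was called at an adjusted p under 0.001 in a two-sided normal test of the log2 ratio with Benjamini-Hochberg adjustment. The median log2 ratio was 1.26 among genes that rose, -1.38 among genes that fell and -0.06 over all tested genes. Changes of more than 4-fold were found for 510 genes that rose and 713 that fell, and changes of more than 16-fold for 143 that rose and 58 that fell. Falls were thus the more frequent, except among changes beyond 16-fold, where rises outnumbered them. Genes that rose held 21.5% of all counts in 0.8ox and 7.22% in T0, and genes that fell held 9.35% in 0.8ox and 23.6% in T0. The remaining tested genes took 68.6% of the counts in 0.8ox and 68.7% in T0. With the counts left unscaled, the median log2 ratio of all tested genes moved to -0.62 and 91.0% of the calls were falls, against 59.8% with equal totals.

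**Figure D1:**
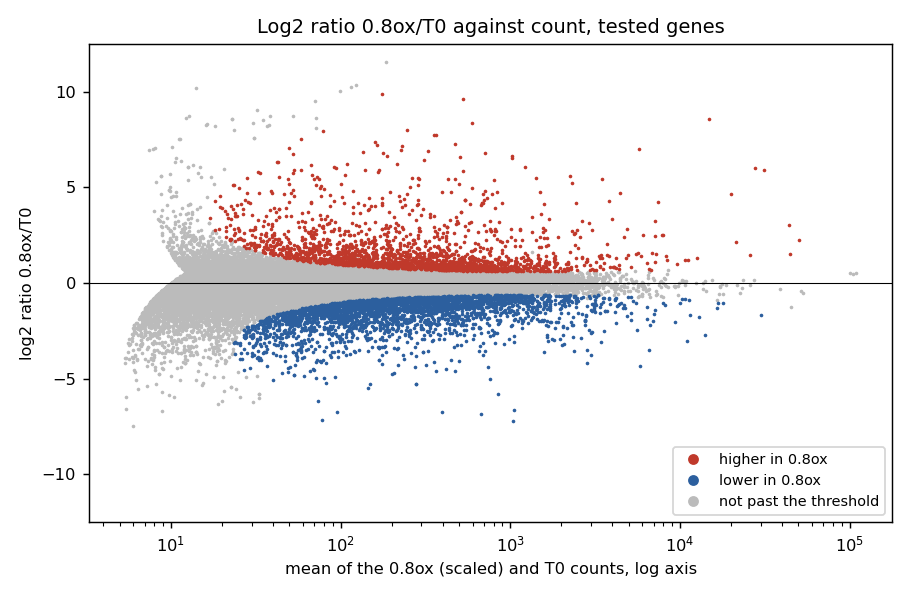
Log2 ratio 0.8ox/T0 (vertical axis) against the mean of the scaled 0.8ox count and the T0 count (horizontal axis, log scale) for the 29909 tested genes; 2001 genes that rose are red, 2974 that fell are blue and the rest are grey. The cloud narrows toward high counts, and the smallest log2 ratio called was 0.61 in size.

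The share of genes called depended on depth, as the plot of log2 ratio against count shows. It was 1.33% of genes with a mean of 10 to 30 counts, 24.2% of those with 100 to 300 counts and 39.8% of those with 3000 counts or more. Over all tested genes the log2 ratio had a median SE of 0.28. A further 28 genes were at 0 in one condition, with 17 at 0 in 0.8ox and 11 at 0 in T0, and were not tested. None of them stood above 74.4 counts in T0 or 54.8 unscaled counts in 0.8ox. Just inside the limit on counts, 603 genes had 10 to 11 counts in their higher condition, and just outside it 605 genes had 9 to 10.

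Names were available for 694 of the tested genes (2.32%), of which 283 (40.8%) were called. They come from the genes measured by RT-qPCR, from the transcription factors the study picked for a difference between the oxygen levels, from genes named in the study's text, and from part of an annotated table of genes ordered by their 0.8ox/0.4ox ratio. Of the 604 genes named in that part of the table, 38.4% were called in 0.8ox against T0, with a median log2 ratio of -0.37. The lists drawn from it are therefore not random members of their families. Each had a higher median log2 ratio over T0 in 0.8ox than in 0.4ox, as with 1.23 (24 tested) and -3.27 (18 tested) for cell wall genes. That part thus favours genes higher in 0.8ox than in 0.4ox. The share called in each list stands beside 38.4% for that part and 16.6% over all tested genes. The 0.8ox counts that placed the genes in that table also enter the ratio to T0, so their directions are given as a description.

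Fermentation and the entry of sugars into glycolysis were represented by genes that the study chose for RT-qPCR, and among its 17 genes 13 rose, 1 fell and 3 were not called in 0.8ox. Of them 82.4% were called, against 16.6% of all tested genes. Their median log2 ratio was 2.35, against -0.06 over all tested genes. PDC (MDP0000800945) reached 54425 ± 9374 counts in 0.8ox, against 855 ± 66.5 in T0. This was a rise of 63.6-fold, with a log2 ratio of 5.99 (SE 0.27). The gene took 0.570% of all counts in 0.8ox, where it ranked 8 by count, and 0.00895% in T0, where it ranked 2205. In contrast, the ADH gene MDP0000594290, the next enzyme on the way to ethanol, had 1758 ± 143 counts in 0.8ox and 1090.2 ± 83.7 in T0. Its log2 ratio was 0.69 (SE 0.16), and with unscaled counts it was 0.13 and not called. The 0.8ox condition was also counted in a second table, with the shifted sample, and there the ADH count was 0.222% of that in the table with T0. This percent is a ratio between separately made tables and not a share of reads, with a median of 85.5 and a highest value of 134.8 over the tested genes. Genes under 10% are described as nearly uncounted in the second table, and what sets them apart was not tested.

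Both LDH genes rose. MDP0000568449 had 476 ± 42.8 counts in 0.8ox and 93.2 ± 11.3 in T0, a log2 ratio of 2.35 (SE 0.22). The second LDH gene, MDP0000143956, had 262 ± 25.9 counts in 0.8ox and 52.9 ± 7.72 in T0, a log2 ratio of 2.31 (SE 0.25). Their levels stayed far under that of PDC in 0.8ox, on counts not corrected for gene length. Alanine aminotransferase (MDP0000319263), which moves an amino group onto pyruvate, had 244 ± 24.4 counts in 0.8ox and 156 ± 16.1 in T0. The difference missed the threshold (log2 ratio 0.64, SE 0.21, adjusted p = 0.00841, normal test with Benjamini-Hochberg adjustment), and its 0.8ox count in the second table was 24.95% of that in the first.

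Genes that feed sugars into glycolysis rose as well. Sucrose synthase (MDP0000250070), which splits sucrose without spending ATP, had 7238 ± 672 counts in 0.8ox and 709 ± 55.8 in T0, a rise of 10.2-fold. The gene MDP0000131308, named phosphofructokinase (the committed step of glycolysis) among the RT-qPCR genes but alpha-amylase-like in the study's text, had 380.4 ± 34.96 counts in 0.8ox and 34.2 ± 5.92 in T0, an 11.1-fold rise. Of the beta-amylase 6 genes, whose enzyme family breaks down starch, MDP0000142134 had 219 ± 22.5 counts in 0.8ox and 26.3 ± 5.13 in T0. Its log2 ratio of 3.06 (SE 0.32) was close to that of MDP0000764433, 2.94 (SE 0.42), which was nearly uncounted in the second table. These 4 genes rose by 7.69-fold to 11.1-fold, and all 4 stayed past the threshold with unscaled counts.

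**Figure D2:**
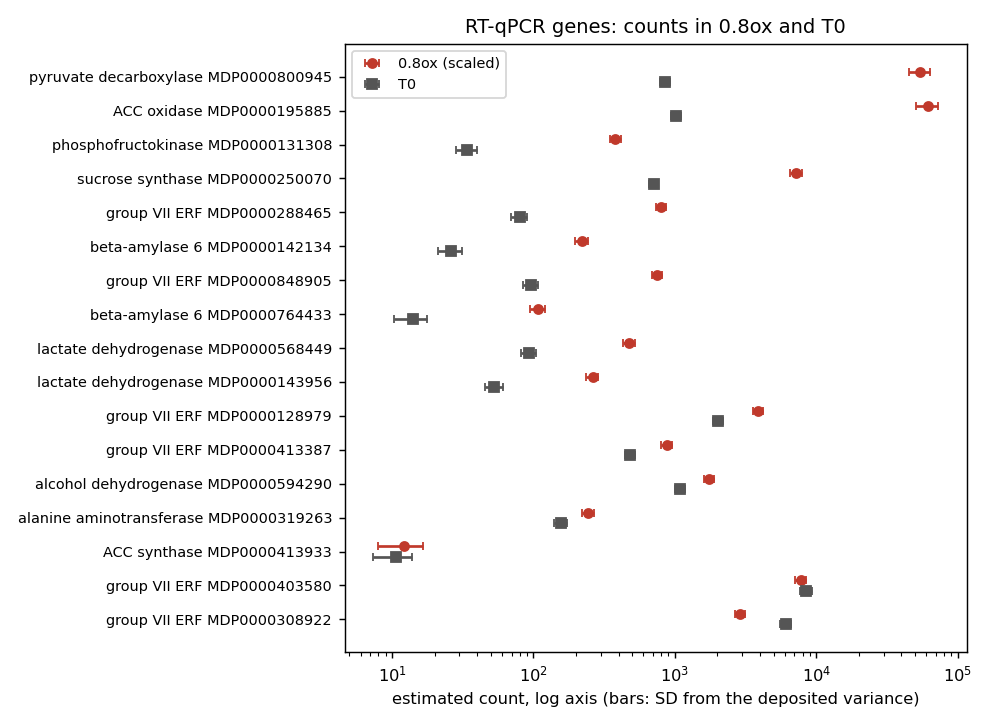
Estimated counts (horizontal axis, log scale) of the 17 RT-qPCR genes in 0.8ox (red circles, scaled to the T0 total) and in T0 (grey squares); bars are the SD from the deposited variance. PDC and ACC oxidase stand at 54425 and 61718 counts in 0.8ox, against 855 and 1023 in T0, while ACC synthase and the ERF MDP0000403580 have overlapping bars.

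The plot of counts of the RT-qPCR genes shows the wide spread of both levels and changes. The gene used as the reference for RT-qPCR in the study (MDP0000375455) had 1165 ± 95.2 counts in 0.8ox and 511 ± 41.7 in T0. Its log2 ratio of 1.19 (SE 0.17) passed the threshold, also with unscaled counts. A ratio of any RT-qPCR gene to it would be smaller by this amount than the ratios given here.

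The 6 ERFs of group VII, the transcription factors through which plant cells sense oxygen, did not move together. In 0.8ox 4 rose, 1 fell and 1 was not called. MDP0000288465 had 800.5 ± 66.9 counts in 0.8ox, against 80.1 ± 10.1 in T0, with a log2 ratio of 3.32 (SE 0.22). MDP0000848905 had 749 ± 62.9 counts in 0.8ox and 96.7 ± 11.6 in T0, a log2 ratio of 2.95 (SE 0.21), but was nearly uncounted in the second table. Both were low in T0 and rose several-fold. MDP0000128979 had 3883 ± 332 counts in 0.8ox and 2024 ± 157 in T0, and MDP0000413387 had 875 ± 73.4 in 0.8ox and 484 ± 39.8 in T0. These changes were smaller, with log2 ratios of 0.94 (SE 0.17) and 0.85 (SE 0.17), and both lost the call with unscaled counts, at 0.38 and 0.29. MDP0000308922 fell, with 2897 ± 239 counts in 0.8ox and 6074 ± 542 in T0 (log2 ratio -1.07, SE 0.18). MDP0000403580 was the most abundant of the 6 by count, with 7789 ± 727 counts in 0.8ox and 8470.2 ± 819 in T0, and its log2 ratio of -0.12 (SE 0.19) was within its error. The ERFs that rose most were the 2 with the lowest T0 counts, and both with the highest T0 counts either fell or were not called. The T0 count also enters the ratio, so this order is given as a description.

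Of the named genes of ethylene synthesis, 1 showed a very large change. ACC oxidase (MDP0000195885), the enzyme that releases ethylene, had 61718 ± 11245 counts in 0.8ox and 1023 ± 79.4 in T0, a 60.3-fold rise with a log2 ratio of 5.92 (SE 0.29). It took 0.646% of all counts in 0.8ox and 0.0107% in T0, and ranked 7 and 1738 by count in these samples. By the study's RT-qPCR, ACC oxidase transcripts also rose in fruit kept in air, and both low oxygen atmospheres delayed that rise. The ACC synthase gene measured by RT-qPCR (MDP0000413933) was near the lower limit of counting, with 12.2 ± 4.25 counts in 0.8ox and 10.6 ± 3.26 in T0. A difference was not detectable at this depth (log2 ratio 0.21, SE 0.67). Another gene of that family, named ACC synthase 12 (MDP0000535274), had 61.6 ± 9.54 counts in 0.8ox and 15.4 ± 3.92 in T0, a log2 ratio of 2.0 (SE 0.43) that lost the call with unscaled counts, at 1.44.

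In the list of 7 tested ethylene genes, ACC oxidase included, 5 rose and none fell (71.4% called), with a median log2 ratio of 2.0. Ethylene responsive element binding factor 2 (MDP0000689946), named after a transcription factor of the ethylene response, had 146 ± 16.6 counts in 0.8ox and 6.2 ± 2.49 in T0 (log2 ratio 4.56, SE 0.60). The ethylene receptor gene ethylene response sensor 1 was represented by 3 models. MDP0000288468 had 280.4 ± 27.3 counts in 0.8ox and 132.5 ± 14.3 in T0, a log2 ratio of 1.08 (SE 0.21) that was not called with unscaled counts. MDP0000242413 had a log2 ratio of 2.39 (SE 0.46), but was nearly uncounted in the second table, and MDP0000752656, with 18.4 counts in 0.8ox and 8.29 in T0, was not called. With unscaled counts 3 of the 7 genes were called as higher.

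The plot of both ratios for the RT-qPCR genes sets 0.8ox and 0.4ox side by side against the same T0 counts. Of all genes tested in 0.4ox/T0, 16.9% were called. PDC stood at 5.99 (SE 0.27) on the log2 scale in 0.8ox and at 6.61 (SE 0.43) in 0.4ox. For sucrose synthase the log2 ratios were 3.35 (SE 0.18) in 0.8ox and 3.29 (SE 0.22) in 0.4ox, and for the LDH gene MDP0000568449 they were 2.35 in 0.8ox and 2.53 in 0.4ox. The direct comparison of the oxygen levels, in a table of its own, called 3.96% of its genes, with 2.42% lower in 0.8ox. In it neither PDC (log2 ratio 0.8ox/0.4ox -0.62, SE 0.49) nor sucrose synthase (0.06, SE 0.23) passed the threshold. ACC oxidase stood at 5.92 (SE 0.29) over T0 in 0.8ox and at 4.61 (SE 0.29) in 0.4ox, and its direct log2 ratio of 1.31 (SE 0.37) missed the threshold (adjusted p = 0.00768, normal test with Benjamini-Hochberg adjustment). Phosphofructokinase and the ERFs MDP0000288465 and MDP0000848905 passed it, each with lower counts in 0.8ox. Each of these genes was called as higher than T0 in both atmospheres.

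**Figure D3:**
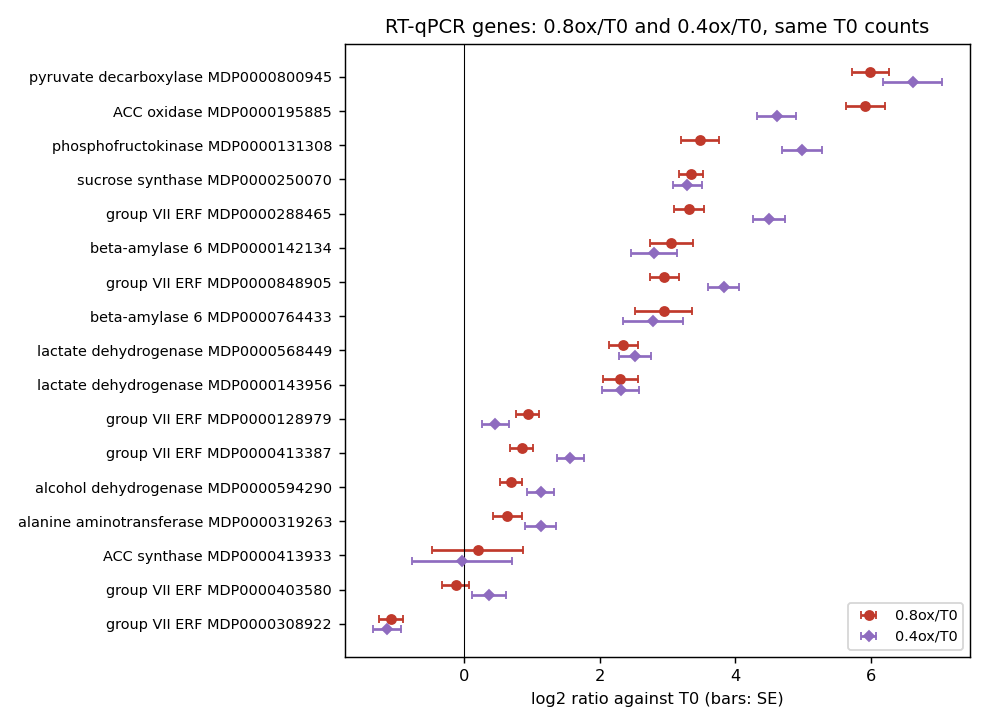
Log2 ratios against T0 (horizontal axis) of the 17 RT-qPCR genes in 0.8ox (red circles) and in 0.4ox (purple diamonds); bars are the SE, and both ratios use the same T0 counts. Phosphofructokinase lies at 3.48 in 0.8ox and 4.98 in 0.4ox, while both LDH genes have overlapping bars.

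Cell wall genes changed in both directions in 0.8ox. Of 24 tested members 9 rose, 7 fell and 8 were not called (66.7% called), with a median log2 ratio of 1.23. The share called was 16.6% over all genes and 38.4% in the part of the table the list comes from. Polygalacturonase (MDP0000326734), which cuts pectin during softening, had 919 ± 76.8 counts in 0.8ox and 21.3 ± 4.66 in T0, a 43.2-fold rise. In 0.4ox the gene had 41.9 scaled counts and a log2 ratio over T0 of 0.98 (SE 0.44), which was not called. Extensin 3 (MDP0000750914), a structural wall protein, had 199 ± 21.2 counts in 0.8ox and 44.1 ± 6.93 in T0, a log2 ratio of 2.17 (SE 0.27). Beta-xylosidase (MDP0000140483) had 68.0 ± 10.7 counts in 0.8ox and 9.44 ± 3.07 in T0, a log2 ratio of 2.85 (SE 0.52). An expansin-like B1 pair, named after wall loosening proteins, had identical counts under separate identifiers, 118 in 0.8ox and 20.8 in T0, and was nearly uncounted in the second table.

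Other wall genes fell. EXORDIUM like 3 (MDP0000807958), of a family linked to cell expansion in Arabidopsis, had 95.3 ± 12.3 counts in 0.8ox and 1288 ± 99.9 in T0, a 13.5-fold fall. The fasciclin-like arabinogalactan protein MDP0000658332 had 661 ± 56.7 counts in 0.8ox and 1716 ± 133 in T0 (log2 ratio -1.38, SE 0.17). Glycosyl hydrolase 9B7 (MDP0000147635), of the cellulase family, had 93.5 counts in 0.8ox and 393 in T0 (log2 ratio -2.07, SE 0.22). Members that rose and members that fell were thus both found among the genes with high counts. Without genes nearly uncounted in the second table, 5 members were called as higher. Outside the list, 2 genes for xyloglucan endotransglucosylase, which recuts wall polymers, rose, and one of them (MDP0000213179) was nearly uncounted in the second table. MDP0000310152 had 8659 ± 833 counts in 0.8ox and 4213 ± 357 in T0 (log2 ratio 1.04, SE 0.18), with a loss of the call at 0.48 when counts were unscaled.

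Of 26 tested acyl-transferases 3 rose, 13 fell and 10 were not called (61.5% called), with a median log2 ratio of -0.93. The family is broad and includes enzymes of the last step to volatile esters. MDP0000637737 was the most abundant by count, with 1415 ± 116 in 0.8ox and 2704 ± 220 in T0, a log2 ratio of -0.93 (SE 0.17). The 13 falls had log2 ratios between -1.0 and -0.89, so they were nearly equal in size. However, 18 of the 26 were nearly uncounted in the second table, and without them 4 members were called as lower. MDP0000533178 went the other way, with 379 ± 35.2 counts in 0.8ox and 14.0 ± 3.74 in T0, a 27.1-fold rise. None of the 6 lipoxygenase genes, which start the breakdown of fatty acids to volatiles, was called. The most abundant, lipoxygenase 2 (MDP0000169311), had 167 counts in 0.8ox and 188 in T0. At low counts the values lay far apart in both directions, as in lipoxygenase 1 (MDP0000452083), with 24.8 counts in 0.8ox and 0.373 in T0, and in another lipoxygenase 2 (MDP0000300321), with 2.66 in 0.8ox and 20.5 in T0.

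In 15 tested photosynthesis genes 11 fell and none rose (73.3% called), with a median log2 ratio of -2.45. The share called was 16.6% over all genes and 38.4% in the part of the table the list comes from. A chlorophyll A-B binding pair among the falls had identical counts under separate identifiers, 7.37 in 0.8ox and 102 in T0, and was nearly uncounted in the second table. Rubisco activase (MDP0000223905), which keeps the carbon fixing enzyme active, had 1602 ± 130 counts in 0.8ox and 6750.5 ± 624 in T0, a 4.21-fold fall. A chlorophyll A-B binding protein gene (MDP0000840536), of the light harvesting antenna, had 462 ± 42.2 counts in 0.8ox and 5201 ± 453 in T0, an 11.2-fold fall. Of 3 genes for the small chain of Rubisco 2 fell, among them MDP0000731480 with 185 counts in 0.8ox and 839 in T0. The 4 members that were not called had at most 43.0 counts in T0, and all had negative log2 ratios. Without genes nearly uncounted in the second table, 6 members were called as lower. Light during storage was not part of the descriptions used here.

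Among 13 tested genes of amino acid metabolism, 9 fell and none rose (69.2% called), with a median log2 ratio of -1.25. Glutamine-dependent asparagine synthase 1 (MDP0000096208), which makes asparagine, the main amide for nitrogen storage, had 547 ± 48.4 counts in 0.8ox and 11120 ± 1159 in T0. This 20.3-fold fall (log2 ratio -4.34, SE 0.20) was the largest in the list among genes with at least 10% of their 0.8ox count in the second table. Its further copies MDP0000744728 and MDP0000125407 had log2 ratios of -4.38 and -4.85 and at most 0.826% of their 0.8ox count in the second table. Serine transhydroxymethyltransferase 1 (MDP0000132477), of one-carbon metabolism, had 68.3 counts in 0.8ox and 388 in T0 (log2 ratio -2.51, SE 0.25). The lysine-ketoglutarate reductase gene MDP0000292807, which starts the breakdown of lysine, had 548 counts in 0.8ox and 1231 in T0 (log2 ratio -1.17, SE 0.17).

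All 8 tested genes of the list on sugar metabolism and sugar transport were called, 5 as higher and 3 as lower. Sucrose phosphate synthase 3F (MDP0000783676), which makes sucrose, had 2465 ± 202 counts in 0.8ox and 5283 ± 462 in T0, a log2 ratio of -1.10 (SE 0.17). This fall stood beside the rise of sucrose synthase given above. The polyol/monosaccharide transporter gene MDP0000940086 had 1038 ± 85.2 counts in 0.8ox and 255 ± 23.4 in T0 (log2 ratio 2.02, SE 0.18). Another gene of that name, MDP0000841918, fell (log2 ratio -1.32, SE 0.24). A trehalase pair with identical counts, 358 in 0.8ox and 127 in T0, was nearly uncounted in the second table. An alpha-amylase-like gene (MDP0000212372) had 182 ± 19.5 counts in 0.8ox and 504 ± 41.1 in T0, a fall (log2 ratio -1.47, SE 0.19), while both beta-amylase genes rose.

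Transporters of organic acids and anions also split, with 10 of 22 tested members higher and 4 lower in 0.8ox (63.6% called). Their median log2 ratio was 1.24. The tonoplast dicarboxylate transporter, which moves malate into the vacuole, was represented by 7 models. MDP0000813710 had 2377 ± 194 counts in 0.8ox and 19753 ± 2464 in T0, an 8.31-fold fall. By contrast, MDP0000147335 of the same name had 1233 counts in 0.8ox and 485 in T0 (log2 ratio 1.34, SE 0.17). A further 4 models rose with log2 ratios of 1.22 to 1.37. Of these, MDP0000271175 and MDP0000307325 had similar counts and were nearly uncounted in the second table, at 0.162% and 3.90% of their 0.8ox count. Summed over the list, counts were 12934 in 0.8ox and 25058 in T0, although more members rose than fell. Of these sums MDP0000813710 alone held 2377 in 0.8ox and 19753 in T0. Sulfate transporter 3;1 (MDP0000231619) had 3190 ± 265 counts in 0.8ox and 612 ± 49.6 in T0, a 5.21-fold rise. A dicarboxylate/malate carrier (MDP0000309741) had 617 ± 54.1 counts in 0.8ox and 7.18 ± 2.68 in T0, with a log2 ratio of 6.43 (SE 0.55).

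Few respiratory genes could be named. Alternative oxidase 1B (MDP0000940411), a terminal oxidase that bypasses part of the mitochondrial electron chain, had 2699 ± 222 counts in 0.8ox and 418 ± 35.1 in T0, a 6.46-fold rise. NAD(P)H dehydrogenase B2 (MDP0000305861), an alternative dehydrogenase at the start of that chain, had 602 ± 51.7 counts in 0.8ox and 1955 ± 151 in T0, a 3.25-fold fall. These single genes thus changed in opposite directions. The 3 genes for the copper chaperone of cytochrome c oxidase had log2 ratios of 0.57 to 0.74 and were not called.

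The genes listed by name under abscisic acid fell, with all 6 tested members lower (100% called) and a median log2 ratio of -2.49. Nine-cis-epoxycarotenoid dioxygenase 3 is named after an enzyme of the committed step of abscisic acid synthesis. Its gene (MDP0000228070) had 7.16 ± 3.25 counts in 0.8ox and 57.6 ± 8.15 in T0. The gene named nine-cis-epoxycarotenoid dioxygenase 4 (MDP0000769041) had 74.8 ± 10.7 in 0.8ox and 152 ± 15.9 in T0. It was listed by its name alone, and its reaction was not examined. The change of MDP0000769041, a log2 ratio of -1.02 (SE 0.26), was not called when ratios were centred on their median. Nor was that of MDP0000148555, another member (log2 ratio -2.31, SE 0.61). A highly ABA-induced PP2C gene (MDP0000304124), a phosphatase that dampens the hormone's signal, had 136 ± 15.8 counts in 0.8ox and 393 ± 33.3 in T0. Another gene of that name (MDP0000628976) had 20.9 counts in 0.8ox and 134 in T0 (log2 ratio -2.68, SE 0.41).

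Auxin genes showed no common direction, with 5 of 15 tested members higher, 4 lower (60% called) and a median log2 ratio of 0.25. Genes of the GH3 family, which conjugate auxin to amino acids, went both ways. MDP0000666539 had 75.8 counts in 0.8ox and 412 in T0 (log2 ratio -2.44, SE 0.24), and MDP0000873893 had 99.3 counts in 0.8ox and 18.6 in T0 (log2 ratio 2.42, SE 0.39). The auxin responsive factor MDP0000211459, of the B3 family, had 318 counts in 0.8ox and 53.1 in T0 (log2 ratio 2.58, SE 0.25). In the 3 tested terpene synthases 1 rose, terpene synthase 02 (MDP0000199152), with 127 ± 15.2 counts in 0.8ox and 7.0 ± 2.65 in T0. The median of these 3 was 4.18, or 2.68 with a gene under 1 count in T0 held at 3 counts.

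**Figure D4:**
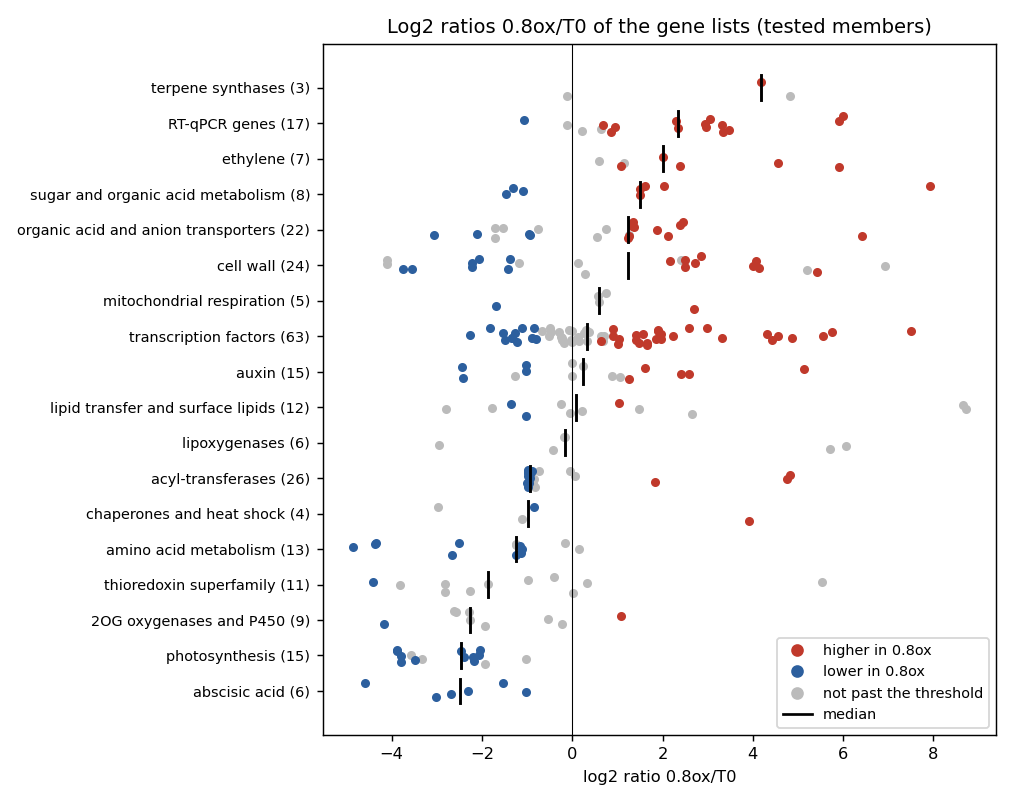
Log2 ratios 0.8ox/T0 (horizontal axis) of the tested members of each gene list (vertical axis, number of tested members in brackets); red points rose, blue points fell, grey points were not called and black bars are medians. The abscisic acid and photosynthesis lists have medians of -2.49 and -2.45, and the RT-qPCR and ethylene lists 2.35 and 2.0.

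Of 4 genes for Phe ammonia lyase, 1 fell and 3 were not called. The enzyme opens this route from phenylalanine to lignin and flavonoids. Its most abundant gene by count (MDP0000787168) had 1223 ± 101 counts in 0.8ox and 1308 ± 100.2 in T0 and was not called. MDP0000668828 fell, with 83.3 ± 11.2 counts in 0.8ox and 311 ± 29.1 in T0 (log2 ratio -1.90, SE 0.24). MDP0000388769 missed the threshold narrowly (log2 ratio -1.24, SE 0.33, adjusted p = 0.00114, normal test with Benjamini-Hochberg adjustment). The share called was 16.6% over all tested genes. All 4 Phe ammonia lyase genes had been named as lower in 0.8ox than in 0.4ox, so low 0.8ox counts entered their choice. In 0.4ox/T0 MDP0000139075, MDP0000388769 and MDP0000787168 were called as higher, with log2 ratios of 2.37, 2.27 and 1.66. MDP0000668828 was not called in 0.4ox/T0 (log2 ratio -0.29). The cinnamoyl CoA reductase gene MDP0000322755 had 544 ± 47.4 counts in 0.8ox and 542 ± 43.8 in T0, with a log2 ratio of 0.01 (SE 0.17). It too had been named as lower in 0.8ox than in 0.4ox, and in 0.4ox/T0 it was called as higher (log2 ratio 1.10).

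The 63 transcription factors that the study listed for a difference between the oxygen levels were also looked up against T0. In 0.8ox 27 rose, 12 fell and 24 were not called (61.9% called, against 16.6% over all genes), with a median log2 ratio of 0.33. Of the 18 listed as higher in 0.8ox than in 0.4ox, 11 rose over T0 and 2 fell, and of the 45 listed as lower, 16 rose and 10 fell. The choice of these genes used the same 0.8ox counts. LOB domain-containing protein 41 (MDP0000881409), whose Arabidopsis namesake is a marker of hypoxia, had 961 ± 80.1 counts in 0.8ox and 122 ± 13.6 in T0, a 7.88-fold rise. Nuclear factor Y subunit B8 (MDP0000320719) had 545 ± 47.9 counts in 0.8ox and 27.3 ± 5.23 in T0 (log2 ratio 4.32, SE 0.30). The homeobox gene BEL1-like homeodomain 6 (MDP0000248279) was one of the most abundant, with 7257 ± 669 counts in 0.8ox and 2616 ± 206 in T0 (log2 ratio 1.47, SE 0.17). A CheY-like response regulator (MDP0000248863), of a family that carries cytokinin signals, had 1587 ± 129 counts in 0.8ox and 339.7 ± 29.5 in T0 (log2 ratio 2.22, SE 0.17).

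The Aux/IAA repressors of auxin signalling had 4 of 6 members higher, and all 3 LOB domain genes of the AS2 family rose, a pair of them with identical counts that was nearly uncounted in the second table. All 4 listed members of the CONSTANS-like zinc finger family fell, with log2 ratios between -1.54 and -1.11. All 4 had been listed as lower in 0.8ox than in 0.4ox, so low 0.8ox counts entered their choice. In 0.4ox/T0 none of them was called, with log2 ratios of -0.40 to 0.46. The most abundant of these 4, salt tolerance homolog2 (MDP0000551876), had 277 counts in 0.8ox and 596 in T0. None of the 4 listed WRKY genes, also chosen as lower in 0.8ox than in 0.4ox, was called, with at most 45.2 counts in 0.8ox and 52.7 in T0. Heat shock transcription factor A2 (MDP0000319456), an activator of chaperone genes, had 116 counts in 0.8ox and 207 in T0. Its log2 ratio of -0.84 (SE 0.22) lost the call at -0.78 when ratios were centred on their median.

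The remaining lists, with their members in the plot of log2 ratios by list, are given by counts. The share called was 16.6% over all genes and 38.4% among genes named in the part of the table these lists come from. In the thioredoxin superfamily, which acts on protein thiols, 1 of 11 tested members (9.09%) fell. Among 12 genes of lipid transfer and surface lipids 1 rose and 2 fell (25% called). In 9 genes for 2-oxoglutarate oxygenases and cytochrome P450 enzymes 1 rose and 1 fell (22.2%), and in 4 chaperone and heat shock genes 1 rose and 1 fell (50%). Many members of these lists had fewer than 50 counts in either condition. The small HSP20-like chaperone gene MDP0000207157 had 37.7 counts in 0.8ox, against 2.48 in T0. The ratio was 15.2, with an exact binomial interval (95%) of 4.80 to 167. The interval treats estimated counts as read numbers and covers counting error only.

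Large rises were also found for named genes in no list, among them 2 with high counts for MLP-like proteins, of the family of the latex and allergen-like proteins. MDP0000294379 had 4492 ± 389 counts in 0.8ox and 120.5 ± 13.8 in T0, a 37.3-fold rise. MDP0000288293 had 4385 ± 377 counts in 0.8ox and 91.7 ± 11.3 in T0, a 47.8-fold rise. In the second table MDP0000294379 had 38.4% and MDP0000288293 44.1% of their 0.8ox count. Among genes near 0 in T0, from the sugar list a tonoplast monosaccharide transporter (MDP0000250193) had 157 ± 17.5 counts in 0.8ox and 0.643 in T0, which is at least 52.5-fold higher against 3 counts. From the transcription factors, an AGAMOUS-like MADS box gene (MDP0000212925) had 117 ± 14.1 counts in 0.8ox and 0.643 in T0, at least 39.0-fold higher. A histidine kinase (MDP0000242277), of the family of hormone and stress sensors, had 104 ± 13.3 counts in 0.8ox and 1.71 in T0. The ratio was 60.8, with a counting interval of 14.0 to 441. RING-H2 finger protein 2B (MDP0000612469), of a family of ubiquitin ligases, had 115 counts in 0.8ox and 1.94 in T0, a ratio of 59.3 with a counting interval of 15.4 to 484. In all, 26 genes had at least 100 scaled counts in 0.8ox and at most 3 in T0, and 7 genes had the reverse pattern, of which 5 and 1 could be named.

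Named genes with large falls included a cystatin-like protein (MDP0000213404), of a family of protease inhibitors, with 31.0 ± 6.76 counts in 0.8ox and 604 ± 48.2 in T0, a 19.5-fold fall. A peroxidase (MDP0000303101) had 31.7 ± 6.84 counts in 0.8ox and 433 ± 36.5 in T0, a 13.7-fold fall. A cytochrome P450 of family 78 (MDP0000140803) had 8.66 ± 3.58 counts in 0.8ox and 156 ± 16.1 in T0 (log2 ratio -4.17, SE 0.61). The largest changes among all called genes that reached 100 counts belonged to models without a name. MDP0000295655 had 1056 ± 86.7 counts in 0.8ox and 1.35 in T0, a ratio of 781 with a counting interval of 189 to 41749. MDP0000203521 had 352 ± 32.8 counts in 0.8ox and 0.376 in T0, at least 117-fold higher. MDP0000250546 had 14.1 ± 4.56 counts in 0.8ox and 2059 ± 160.1 in T0, a 146-fold fall. MDP0000506359 had 1.08 counts in 0.8ox and 155 ± 16.1 in T0, at least 35-fold lower.

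Of the 4975 called genes, 895 (18.0%) were nearly uncounted in the second table, against 6408 (21.4%) of the tested genes. When they were left out, 4105 genes were called, of which 4080 were among the 4975.

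For some of the named genes, values after the move to 0.8 kPa oxygen from 0.4 kPa oxygen were available in a separate table, in which 1.96% of genes were called and 0.416% were lower. The day of that sample is not given in the sources used here. Its age, its earlier time in 0.4 kPa oxygen and the move therefore cannot be told apart. Polygalacturonase was lower in the shifted fruit than in 0.8ox, with a log2 ratio of -5.40 (SE 0.40). The dicarboxylate/malate carrier was also lower, with -3.33 (SE 0.29). Both genes were already low in 0.4ox, with 41.9 scaled counts for polygalacturonase and 13.3 for the carrier, against 919 and 617 in 0.8ox. PDC, by contrast, had a log2 ratio of -0.06 (SE 0.32) between the shifted fruit and 0.8ox and was not called. Of these genes, chosen after their values were seen, only PDC was within its error of the 0.8ox level.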

How the data were processed

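RNA was sequenced from apple cortex for T0 and for 0.8ox, with 3 libraries per condition. The authors cleaned reads with ERNE, aligned them with TopHat2 and Bowtie2 to the apple genome with removal of reads that map to several places, and counted them with Cuffdiff, whose versions are not given in the sources used here. What the authors deposited are estimated counts by gene, 1 per condition and not scaled between conditions, each with a modelled variance. The totals, 6471124 in 0.8ox and 9553180 in T0, are sums of estimated counts. They are smaller than the numbers of mapped reads that the study gives, which differed widely between the T0 libraries. A second table with 0.8ox differed in its low values. Below 3 counts, 0.8ox had 2308 distinct values (to 3 decimals) among 13388 in the table with T0 and 125 among 10653 in the table with the shifted sample. The 0.8ox count in the second table was given as a percent of that in the first, and genes under 10% are called nearly uncounted there. How the tables came to differ is not given in the sources used here, and read sharing between genes was not tested.

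The 0.8ox counts were scaled by column totals. The SE of a log2 ratio came from the variance of both counts, each over its count squared and not divided by the number of libraries. A two-sided normal test was made of the log2 ratio over its SE, with Benjamini-Hochberg adjustment and a threshold of 0.001. Tested genes had 10 counts or more in 1 condition and were above 0 in the other too. Against a condition under 1 count, a fold was bounded with 3 counts. With 1 to 3 counts it was given an exact binomial interval (95%). The interval treats estimated counts as read numbers and covers counting error only. Python 3.11.15, pandas 2.3.3 and scipy 1.17.1 were used. As an alternative, the exact test of edgeR 4.0.16 (R 4.3.3) was run on counts rounded to whole numbers, with the dispersion taken from the deposited variance. Other alternatives concerned scaling, variance, minimum count, pseudocount, threshold, genes with identical counts and genes nearly uncounted in the second table. The procedure was tested on simulated data.

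Named genes were drawn from those measured by RT-qPCR, those identified in the study's text or in earlier results, up to 5 tested members of each list with the highest counts, the 12 largest named rises and falls, and the 2 largest rises and falls of all called genes reaching 100 counts. Other list members were named after their values were seen. The genes with the highest count in a condition carry no name here and are not described. The members and lists were chosen with earlier results of these data known. None of the apple identifiers matched the RefSeq table at hand, so names come from the study's own tables, and no sequence was read.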

Additional observations from a re-analysis of the deposited data

Results flagged for a closer look

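For 3 of the RT-qPCR genes, the change from T0 differed between the oxygen levels by the direct test of 0.8ox against 0.4ox (normal test of the log2 ratio, Benjamini-Hochberg adjustment over 26934 genes). The phosphofructokinase gene MDP0000131308 had 380.4 counts in 0.8ox, 1080.1 in 0.4ox and 34.2 in T0, and its log2 ratio 0.8ox/0.4ox was -1.51 (SE 0.20, adjusted p = 2.8e-11). The ERF MDP0000288465 had 800.5 counts in 0.8ox, 1806 in 0.4ox and 80.1 in T0, and its ratio 0.8ox/0.4ox was -1.17 on the log2 scale (SE 0.20, adjusted p = 2.03e-07). The ERF MDP0000848905 had 749 counts in 0.8ox, 1374 in 0.4ox and 96.7 in T0, and its ratio 0.8ox/0.4ox was -0.88 on the log2 scale (SE 0.20, adjusted p = 0.000251). The last gene was nearly uncounted in the second table with 0.8ox. Counts are scaled to the T0 total.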

How the results depend on the processing

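Of the settings tried, 3 moved the number of called genes by over 1.5 times. With no scaling between conditions 8742 genes were called, 790 higher and 7952 lower, and 3764 of them were among the 4975. With the variance divided by the 3 libraries 11749 genes were called, 5076 higher and 6673 lower. With an adjusted p under 0.05 the number was 9739, with 4169 higher and 5570 lower. Under the other settings it lay between 4105 (without genes nearly uncounted in the second table) and 5257 (edgeR exact test). Centring on the median log2 ratio gave 4954 calls, of which 53.4% were falls, and totals without the 10 top genes gave 4964. No called gene among those named turned its direction under any setting. Of 306 named genes, 26 lost and 34 gained a call with no scaling, and 61 gained one with the divided variance. Over all lists, 154 members were called, and between 114 and 203 under the other settings.

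No paired analysis was possible because the tables hold 1 merged value per condition, and for the same reason no replicate was left out. At low counts few genes were called, with 92 calls among 6942 genes with a mean of 10 to 30 counts.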
